A study of Mus musculus with 24 samples.

Results

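The mitochondrial ribosomal protein genes were followed in RNA sequencing of mouse ventral prostate organoids. Members were the protein-coding rows of the deposited expression table whose symbol begins with Mrpl or Mrps and then a digit, and 78 of 54838 genes met this rule. Of these, 49 carried an Mrpl symbol, the series of the large ribosomal subunit, and 29 an Mrps symbol, the series of the small subunit. All 78 reached 1 FPKM in at least 5 libraries and were among the 12899 genes tested, so none was left out for a low value. FPKM corrects the fragments of a gene for the length of its transcript and for the size of the library, so levels of different genes can be set beside each other. Another 5 rows with such a symbol are processed pseudogenes and were not counted. Of these, Mrpl23-ps1 reached 37.5 FPKM, Mrps36-ps1 5.77 FPKM and Mrpl48-ps 2.17 FPKM, so the values of Mrpl23, Mrps36 and Mrpl48 are uncertain where reads fit both copies.

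Organoids are small epithelial cultures kept in a gel, here Matrigel. The study compared organoids named Tmprss2-fl/fl-ERG, the submitters' control, with organoids named Tmprss2-ERG (T-ERG in what follows). ERG belongs to the ETS transcription factors and Tmprss2 codes for a protease of prostate epithelium, and both genotype names hold both genes. Each genotype had 2 organoid clones, and each clone gave 5 libraries from 5 separate gel domes, which makes 20 libraries in all. The tissue came from a mouse of 4 months, and no treatment is given for either group. The sources used here do not say whether clones of a genotype stem from different animals. All p-values therefore reflect how far these clones, or their domes, varied. Among the markers examined, the basal keratin genes Krt5 and Krt14 stood at 3094 FPKM or more in every library, and the luminal genes Krt8, Krt18 and Epcam were present. The secretory product Pbsn was listed at 0 in all 20 libraries. Stromal and endothelial markers summed to less than 1 FPKM in each library, and the only immune marker above 0 was Cd68.

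Mitochondria keep their own ribosomes, which translate the few membrane proteins encoded on mitochondrial DNA, all of them subunits of the respiratory chain and the ATP synthase. The RNA of these ribosomes is made in the mitochondrion, but every ribosomal protein is encoded in the nucleus, made in the cytosol and imported. Some of the proteins descend from the bacterial ribosome and others were added in the mitochondrial line. In mammals, the symbol does not always match the place of the protein. Mrps18a and Mrps30 sit in the large subunit, and Mrps36 belongs to the oxoglutarate dehydrogenase complex and is not part of the ribosome.

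All 78 members were found by symbol in the RefSeq annotation of build GRCm38.p6, spread over 17 chromosomes, with the most, 11, on chromosome 11. RefSeq promoter windows, from 250 bases before to 50 after a transcription start, were at hand for 69 members (75 windows). Of these, 4 are printed here, picked with the values known from members with large clone differences or a negative genotype difference. The choice is not complete: Mrps22, with the largest genotype difference, also had a window, which is not printed. Mrps27 (chr13:99344536-99344835, plus strand) and Mrps18b (chr17:35916391-35916690, minus strand) were among the members with the largest differences between the control clones. Mrps25 (chr6:92183974-92184273, minus strand) had the largest difference between the T-ERG clones. Mrpl9 (chr3:94443086-94443385, plus strand) had the most negative genotype difference. Capitals mark every match, on either strand, to 5 short motifs: CACGTG (E-box), CCGGAAG (ETS), GCGCATGC (NRF1), AAGATGGCG (YY1) and CCAAT (NF-Y).
Mrps27: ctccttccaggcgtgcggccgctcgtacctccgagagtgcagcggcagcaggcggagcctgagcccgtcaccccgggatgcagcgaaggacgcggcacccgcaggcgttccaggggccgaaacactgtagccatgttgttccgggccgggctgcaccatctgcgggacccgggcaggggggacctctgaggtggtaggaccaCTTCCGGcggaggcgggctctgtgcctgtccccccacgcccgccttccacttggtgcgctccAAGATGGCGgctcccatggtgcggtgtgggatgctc
Mrps18b: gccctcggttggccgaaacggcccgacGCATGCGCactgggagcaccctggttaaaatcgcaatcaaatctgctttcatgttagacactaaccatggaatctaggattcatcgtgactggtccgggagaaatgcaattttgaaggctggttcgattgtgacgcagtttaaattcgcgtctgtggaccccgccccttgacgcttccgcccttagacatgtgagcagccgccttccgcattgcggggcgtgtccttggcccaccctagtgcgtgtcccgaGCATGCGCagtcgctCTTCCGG
Mrps25: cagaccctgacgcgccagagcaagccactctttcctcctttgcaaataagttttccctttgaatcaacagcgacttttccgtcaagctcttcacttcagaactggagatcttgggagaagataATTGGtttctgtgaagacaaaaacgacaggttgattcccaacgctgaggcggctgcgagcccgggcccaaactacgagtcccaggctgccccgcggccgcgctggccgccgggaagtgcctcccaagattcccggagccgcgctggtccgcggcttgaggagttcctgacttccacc
Mrpl9: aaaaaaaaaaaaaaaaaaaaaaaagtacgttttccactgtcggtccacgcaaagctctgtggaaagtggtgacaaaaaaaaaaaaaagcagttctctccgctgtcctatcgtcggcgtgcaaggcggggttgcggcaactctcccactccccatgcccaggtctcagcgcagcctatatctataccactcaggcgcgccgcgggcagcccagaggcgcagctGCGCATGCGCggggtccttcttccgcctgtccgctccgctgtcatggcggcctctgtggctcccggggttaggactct
The Mrps27 window holds an ETS match on the reverse strand and a YY1 match, and the Mrps18b window 2 NRF1 matches and an ETS match, all on the reverse strand. The capitals in Mrpl9 are 1 stretch in which the NRF1 motif overlaps its own reverse complement, and the capitals in Mrps25 are a CCAAT on the reverse strand. The window of Mrpl12, another member with large clone differences, held none of the 5 motifs.

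Over the 75 member windows, the ETS motif was present in 34.7%, against 18.2% of the 11724 windows of tested genes and 8.86% of all 32851 windows. The YY1 motif was present in 10.7% of member windows, 3.13% of those of tested genes and 1.4% of all. For the NRF1 motif the shares were 10.7%, 5.29% and 2.71%. The E-box was present in 9.33%, 10.1% and 7.15%, and CCAAT in 40.0%, 38.0% and 37.4%. These shares count windows, and overlapping windows of 1 gene enter separately, as for Mrpl2, whose windows all hold both motifs. By gene, the E-box was present in 5 and CCAAT in 27 of the 69 members. Median GC content was 58.7% in member windows, 61.0% in windows of tested genes and 52.7% over all windows. A match is a description of the letters and does not show that a factor binds there. The median genotype difference was 0.23 log2 units over the 26 members with an ETS match and 0.28 over the 43 without. In the same order the medians were 0.28 and 0.23 between the control clones, and 0.09 and 0.17 between the T-ERG clones. For each of the other motifs the genotype median was the higher in members with a match. Whether a motif goes with the differences was not tested.

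Many members start head to head with another gene. Within 1000 bases upstream, 27 of 69 members (39.1%) had the start of a gene on the opposite strand, against 21.2% of tested genes and 12.9% of all genes with a window. Mrpl46 and Mrps11, of the large and the small subunit, start 42 bases apart on chromosome 7 and are the members paired with each other. Mrps12 lies 147 bases from Sars2, the mitochondrial seryl-tRNA synthetase, and Mrpl43 lies 116 bases from Twnk, the helicase of mitochondrial DNA. On the annotation, 20 of the 78 member spans overlap another protein-coding gene, among them Mrps25 with Nr2c2 (3547 bases), Mrpl18 with Tcp1 (1459 bases) and Mrps6 with Slc5a3 (29138 bases). The sources used here do not say whether strand was kept in the libraries or in counting, so reads from such stretches may not be told apart.

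The members were expressed in every library, and no member was at 0 in any. Mean levels over the 20 libraries ran from 6.60 FPKM for Mrpl1, a protein of the L1 stalk, to 215.8 FPKM for Mrpl33, a small bacterial-type protein, a ratio of 32.7. The median member stood at 36.5 FPKM, against 11.8 FPKM for the median tested gene. In the large subunit series, Mrpl52 followed at 182.6 FPKM, Mrpl17 at 100.4 FPKM, Mrpl20 at 88.6 FPKM and Mrpl14 at 85.9 FPKM. The lowest were Mrpl1, Mrpl11 at 7.38 FPKM and Mrpl47 at 10.1 FPKM. In the small subunit series, Mrps21 was highest at 213.1 FPKM, ahead of Mrps23 at 96.0 FPKM, Mrps18c at 89.5 FPKM, Mrps33 at 79.4 FPKM and Mrps14 at 66.1 FPKM. Mrps30 at 7.73 FPKM, Mrps31 at 8.62 FPKM and Mrps2 at 14.5 FPKM were lowest. The pooled SD between domes of a clone was 0.18 log2 units for the median member, from 0.09 to 0.47.

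Summed over members, levels differed between clones by more than between domes. The sums were 3079, 3050, 3060, 2928 and 2853 FPKM in the libraries of control clone 1. They were 3486, 3449, 3666, 3470 and 3488 FPKM in control clone 2. Every library of control clone 2 thus lay above every library of control clone 1. In T-ERG clone 1 the sums were 3823, 3617, 3556, 3716 and 3634 FPKM. In T-ERG clone 2 they were 3973, 3979, 3941, 3923 and 4243 FPKM. Control clone 2 and T-ERG clone 1 overlapped, and T-ERG clone 2 lay above all other libraries. Members took 0.402% ± 0.008 of the summed FPKM of a library in control clone 1, 0.473% ± 0.009 in control clone 2, 0.477% ± 0.009 in T-ERG clone 1 and 0.524% ± 0.006 in T-ERG clone 2 (SD, n = 5 domes each). These libraries are bulk RNA, in which fewer cells of a type and less RNA per cell cannot be told apart.

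**Figure D1:**
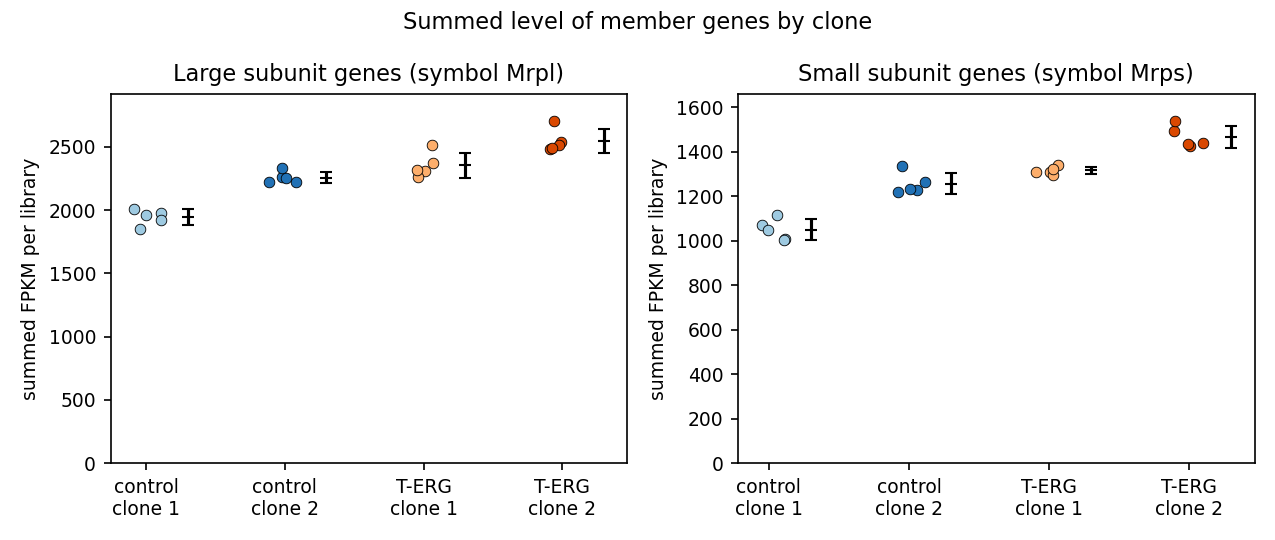
Summed FPKM per library of the 49 genes with an Mrpl symbol (left) and the 29 with an Mrps symbol (right), by clone, with 1 point per library and bars for mean ± SD of 5 domes. In both panels control clone 1 is lowest, at 1850 to 2011 FPKM and 1003 to 1116 FPKM, and T-ERG clone 2 has the highest mean.

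Both subunits followed this order. The large-subunit sums averaged 1945 ± 62.2 FPKM in control clone 1, 2256 ± 45.5 FPKM in control clone 2, 2354 ± 98.0 FPKM in T-ERG clone 1 and 2546 ± 90.9 FPKM in T-ERG clone 2 (SD, n = 5 domes). The small-subunit sums averaged 1049 ± 46.7, 1255 ± 47.4, 1316 ± 16.7 and 1466 ± 48.2 FPKM in the same order. The ratio of the large to the small sum was 1.85 ± 0.06 in control clone 1 and 1.74 ± 0.04 in T-ERG clone 2, and the ranges of 1.76 to 1.92 and 1.67 to 1.76 overlapped slightly. Genes at high levels weigh more in a sum than genes at low levels, so the gene-by-gene comparisons follow.

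No member passed the threshold between the genotypes, although most were somewhat higher in T-ERG. The comparison rests on 4 clone means, since genotype differs only between clones, with limma on the log2(FPKM + 1) scale and adjustment over the 12899 genes tested. Of 78 members, 0 were called at an adjusted p below 0.05, as of all genes tested (0.0%), and adjusted p ran from 0.574 to 0.980. At an unadjusted p below 0.05, 3 members were higher (Mrps22, Mrpl47 and Mrps35), against 3.7% of tested genes. On the same rule 1 was lower (Mrpl9), against 4.74% of tested genes. A limma fit to all 20 libraries with the clone as a random block called 2 members higher (Mrpl20 and Mrpl12), against 5.23% of tested genes. It called 1 lower (Mrpl9), against 5.61% of tested genes.

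The direction was shared by most members. The difference was above 0 in 71 of 78 members, against 50.8% of tested genes, and the median difference was 0.28 log2 units, a fold of 1.21, against 0.01 for all tested genes. In 45 members both means of T-ERG clones exceeded both control clone means (57.7%), against 21.7% of tested genes. Both lay below in 2 members, Mrpl9 and Mrpl24, against 23.2% of tested genes. With single libraries, 0 members had all 10 T-ERG libraries above all 10 control libraries, against 2.5% of tested genes. Mrpl9 was the 1 member with all T-ERG libraries below all control libraries, against 3.7% of tested genes.

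The size of this shift depended on control clone 1. That clone had the lowest of the 4 clone means in 65 members (83.3%), against 39.7% of tested genes. T-ERG clone 2 had the highest in 57 members (73.1%), against 34.8% of tested genes. Without control clone 1 the median member difference was 0.13 log2 units with 62 members above 0, and without T-ERG clone 2 it was 0.17 with 67 above 0. Mrpl45, Mrps23 and Mrps36 were among the members that turned below 0 without control clone 1, to differences of -0.15, -0.0029 and -0.26 log2 units.

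**Figure D2:**
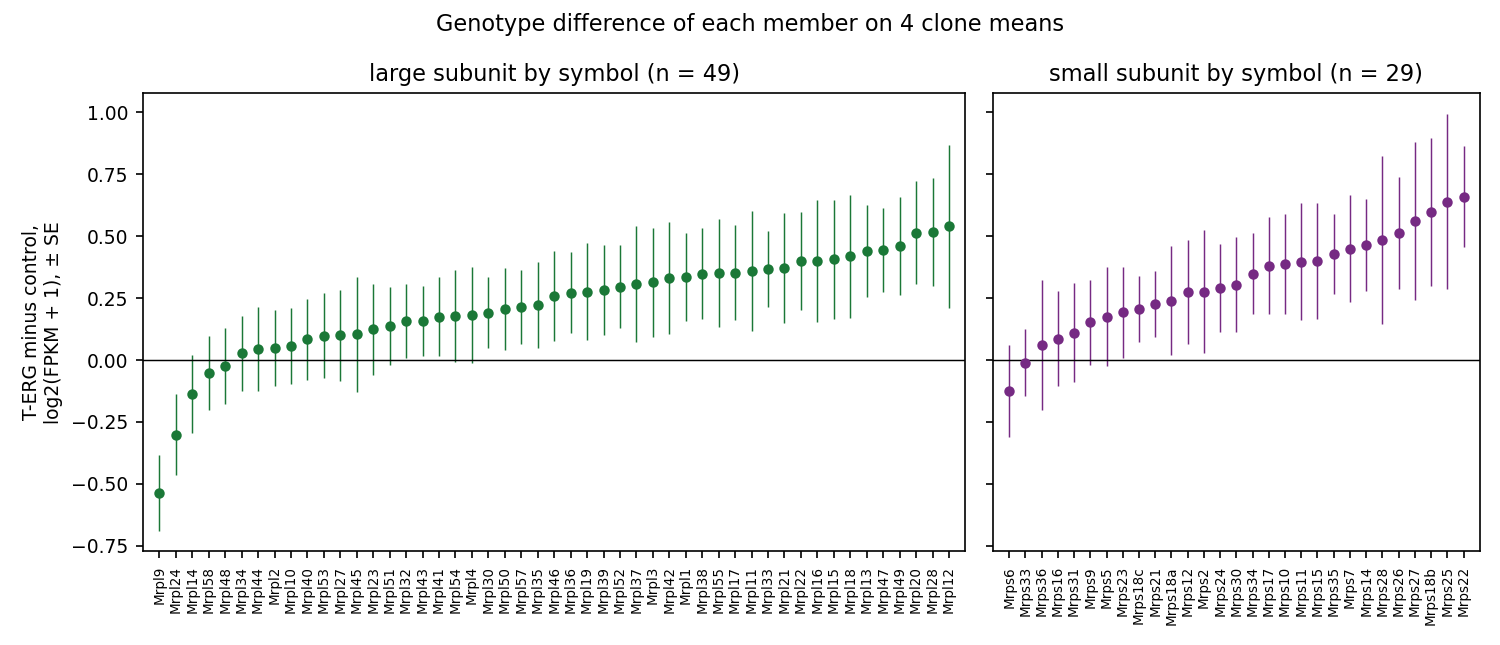
T-ERG minus control on the log2(FPKM + 1) scale for each of the 49 Mrpl genes (left) and 29 Mrps genes (right), sorted by size, with bars for ± 1 SE over 4 clone means. Most points lie above 0, between -0.54 for Mrpl9 and 0.66 for Mrps22, and no member passed the threshold.

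Large and small subunit genes had similar genotype differences, with a median of 0.26 log2 units over the 49 Mrpl genes and 0.30 over the 29 Mrps genes. Sorted by where the protein sits, the medians were 0.26 over 51 large-subunit and 0.36 over 26 small-subunit genes. The 46 members with a bacterial counterpart had a median of 0.30, and the 32 specific to mitochondria a median of 0.23. The 39 members with the higher mean level had a median of 0.21 and the other 39 a median of 0.30.

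Among the small-subunit genes, Mrps22, which is mutated in a human deficiency of oxidative phosphorylation, had the largest difference. Its lowest, median and highest values were 10.0, 12.4 and 16.8 FPKM in the 10 control libraries and 14.3, 22.4 and 27.5 FPKM in the 10 T-ERG libraries. The ranges overlapped in a few libraries, and the difference was 0.66 ± 0.20 log2 units (SE, 4 clone means, limma adjusted p = 0.574). Mrps25 was at 16.9, 27.8 and 41.1 FPKM in control and 27.0, 43.9 and 60.0 FPKM in T-ERG, and the difference was 0.64 ± 0.35. Mrps18b, 1 of 3 mammalian relatives of bacterial S18, was at 12.4, 24.8 and 35.7 FPKM in control and 27.7, 36.6 and 46.4 FPKM in T-ERG, and the difference was 0.60 ± 0.30. In both genes the 2 clones of a genotype lay far apart, which is the spread that the test weighs. The other relatives of S18 had smaller differences, 0.24 ± 0.22 for Mrps18a and 0.21 ± 0.13 for Mrps18c. Mrps27, a pentatricopeptide-repeat protein, differed by 0.56 ± 0.32. Mrps12 of the decoding centre differed by 0.28 ± 0.21, Mrps7 by 0.45 ± 0.22, Mrps28 by 0.48 ± 0.34, Mrps34 by 0.35 ± 0.16 and Mrps16 by 0.09 ± 0.19.

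Among the large-subunit genes, Mrpl12, the stalk protein that recruits translation factors, had the largest difference. It was at 26.4, 36.3 and 50.6 FPKM in control (lowest, median, highest) and at 40.2, 56.2 and 73.0 FPKM in T-ERG, which differ by 0.54 ± 0.33 log2 units (SE, 4 clone means). Its partners at the stalk base differed less, by 0.06 ± 0.15 for Mrpl10 and 0.36 ± 0.24 for Mrpl11. Mrpl28 differed by 0.52 ± 0.22, Mrpl20 by 0.51 ± 0.21 and Mrpl49 by 0.46 ± 0.20. Of proteins near the peptidyl transferase centre, Mrpl2 differed by 0.05 ± 0.15 and Mrpl3 by 0.31 ± 0.22. Around the exit tunnel, Mrpl23 differed by 0.12 ± 0.18, Mrpl24 by -0.30 ± 0.16 and Mrpl45, which anchors the ribosome to the inner membrane, by 0.10 ± 0.23. Mrpl44, related to RNase III, differed by 0.04 ± 0.17 and Mrpl41 by 0.17 ± 0.16. Mrpl18 of the central protuberance differed by 0.42 ± 0.25 and Mrpl58, a peptidyl-tRNA hydrolase built into the ribosome, by -0.05 ± 0.15. Mrps30, which sits in the large subunit, differed by 0.30 ± 0.19, and Mrps36, which sits in neither, by 0.06 ± 0.26.

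Mrpl9, a bacterial-type protein of the large subunit, went the other way. In control clone 1 its libraries were at 85.2, 66.8, 77.1, 70.1 and 68.7 FPKM, and in control clone 2 at 65.5, 59.6, 60.3, 63.2 and 68.5 FPKM. In T-ERG clone 1 they were at 45.1, 51.7, 44.3, 49.1 and 47.6 FPKM, and in T-ERG clone 2 at 42.3, 45.2, 40.1, 47.3 and 56.3 FPKM. The lowest control library, at 59.6 FPKM, thus lay above the highest T-ERG library, at 56.3 FPKM. The difference was -0.54 ± 0.15 log2 units (95% interval -0.94 to -0.13, limma adjusted p = 0.574) and did not pass the threshold. Mrpl24 was at 54.3, 61.5 and 78.1 FPKM in control and 36.2, 49.4 and 82.8 FPKM in T-ERG (lowest, median, highest), so single libraries overlapped although clone means did not. Of the other members below 0, Mrpl14 stood at -0.14 ± 0.16, Mrps6 at -0.13 ± 0.19, Mrpl48 at -0.03 ± 0.15 and Mrps33 at -0.01 ± 0.14, with Mrpl58 given above.

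Within control, 29 of 78 members (37.2%) rose from clone 1 to clone 2 and 1, Mrpl9, fell, in limma on 5 against 5 domes with adjustment over all tested genes. Among all tested genes 25.1% were called higher and 13.2% lower. The median member difference was 0.25 log2 units, against 0.10 over all tested genes, and 70 members lay above 0. By symbol, 17 of 49 Mrpl genes and 12 of 29 Mrps genes were called higher. With each library shifted to a common median, 19 members were called higher, against 18.5% of tested genes, and 2 lower (Mrpl9 and Mrps6), against 17.7%. On that scale the median member difference was 0.16 and that of all genes 0.01, and the calls over all genes changed from 3233 higher and 1706 lower to 2390 higher and 2287 lower. With the dome number as a block, 28 members were called higher, against 22.7% of tested genes.

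Mrps27 had the largest difference between the control clones. It was at 9.26, 7.41, 9.01, 9.98 and 8.28 FPKM in clone 1 and at 16.8, 14.9, 19.1, 15.7 and 15.6 FPKM in clone 2. The clones did not overlap, and the difference was 0.83 ± 0.09 log2 units (SE, 5 against 5 domes, limma adjusted p = 3.86e-05). Mrps28, a relative of bacterial S1, was at 10.3, 6.59, 9.45, 10.4 and 7.96 FPKM in clone 1 and at 13.2, 17.9, 18.6, 17.8 and 13.3 FPKM in clone 2. These clones did not overlap either, and the difference was 0.79 ± 0.14 log2 units (limma adjusted p = 0.00117). Mrps18b was at 18.9, 20.9, 17.0, 24.1 and 12.4 FPKM in clone 1 and at 31.7, 35.7, 29.1, 29.5 and 25.5 FPKM in clone 2. Again every library of clone 2 was the higher, by 0.69 ± 0.15 log2 units on average (limma adjusted p = 0.00418). Mrps36 rose by 0.65 ± 0.11, from 25.4 to 37.3 FPKM in clone 1 to 41.2 to 53.9 FPKM in clone 2 (limma adjusted p = 0.000630). The other large rises were Mrps25 at 0.64 ± 0.12, Mrpl12 at 0.59 ± 0.07, Mrpl15 at 0.59 ± 0.12, Mrpl21 at 0.52 ± 0.13, Mrpl45 at 0.52 ± 0.07, Mrps15 at 0.51 ± 0.12, Mrpl28 at 0.51 ± 0.11 and Mrpl3 at 0.50 ± 0.11 log2 units. Mrpl9 fell by 0.21 on the log2 scale (limma adjusted p = 0.0382), a call that ended when any of 6 libraries was left out. Mrps6 at -0.18 ± 0.08, Mrpl2 at -0.16 ± 0.20 and Mrps34 at -0.06 ± 0.09 lay below 0 without passing.

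Within T-ERG, 19 of 78 members (24.4%) rose from clone 1 to clone 2 and 1, Mrps6, fell. Among all tested genes 17.0% were called higher and 13.5% lower. The median member difference was 0.16 log2 units, against 0.03 over all tested genes, and 64 members lay above 0. By symbol, 10 of 49 Mrpl genes and 9 of 29 Mrps genes were called higher. With the dome number as a block, which only the numbered libraries allow, 5 members were called higher, against 5.54% of tested genes, and 0 lower, against 5.08%. The sources used here do not say whether clones of the same number in both genotypes are related.

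Mrps25 had the largest difference between the T-ERG clones. It was at 30.6, 37.8, 34.0, 30.0 and 27.0 FPKM in clone 1 and at 53.1, 60.0, 51.9, 49.9 and 55.6 FPKM in clone 2. The clones were far apart with no overlap, and the difference was 0.75 ± 0.09 log2 units (SE, 5 against 5 domes, limma adjusted p = 7.08e-05). Mrpl12 was at 46.5, 40.5, 40.2, 42.2 and 43.6 FPKM in clone 1 and at 67.3, 66.0, 73.0, 72.5 and 68.2 FPKM in clone 2. It too did not overlap, with a difference of 0.69 ± 0.05 log2 units and the smallest adjusted p of any member (limma adjusted p = 3.07e-06). Mrpl18 was at 40.6, 41.6, 41.0, 44.6 and 36.4 FPKM in clone 1 and at 70.2, 54.8, 60.5, 49.5 and 75.9 FPKM in clone 2, higher by 0.58 ± 0.11 log2 units (limma adjusted p = 0.00203). Mrpl16 was at 9.58 to 12.5 FPKM in clone 1 and 15.5 to 18.9 FPKM in clone 2, a difference of 0.56 ± 0.09. Mrpl12 and Mrpl16 are both bacterial-type proteins, whereas Mrps25 is specific to mitochondria. Smaller rises were found for Mrps28 at 0.48 ± 0.12, Mrps11 of the small-subunit platform at 0.46 ± 0.07, Mrps26 at 0.46 ± 0.09, Mrps7 at 0.45 ± 0.10, Mrps18b at 0.39 ± 0.08, Mrpl20 at 0.39 ± 0.07, Mrpl4 at 0.38 ± 0.08 and Mrps2 at 0.36 ± 0.10 log2 units.

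Mrps6, a bacterial-type protein of the small-subunit platform whose gene span overlaps Slc5a3, fell between the T-ERG clones. It was at 46.5, 48.8, 52.5, 57.1 and 53.7 FPKM in clone 1 and at 41.4, 37.7, 41.8, 39.4 and 43.6 FPKM in clone 2. All libraries of clone 2 lay below all of clone 1, and it fell by 0.33 on the log2 scale (SE 0.06, limma adjusted p = 0.00222). Mrpl24 at -0.26 ± 0.17, Mrpl14 at -0.25 ± 0.10 and Mrps10 at -0.14 ± 0.07 were below 0 without passing the threshold.

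**Figure D3:**
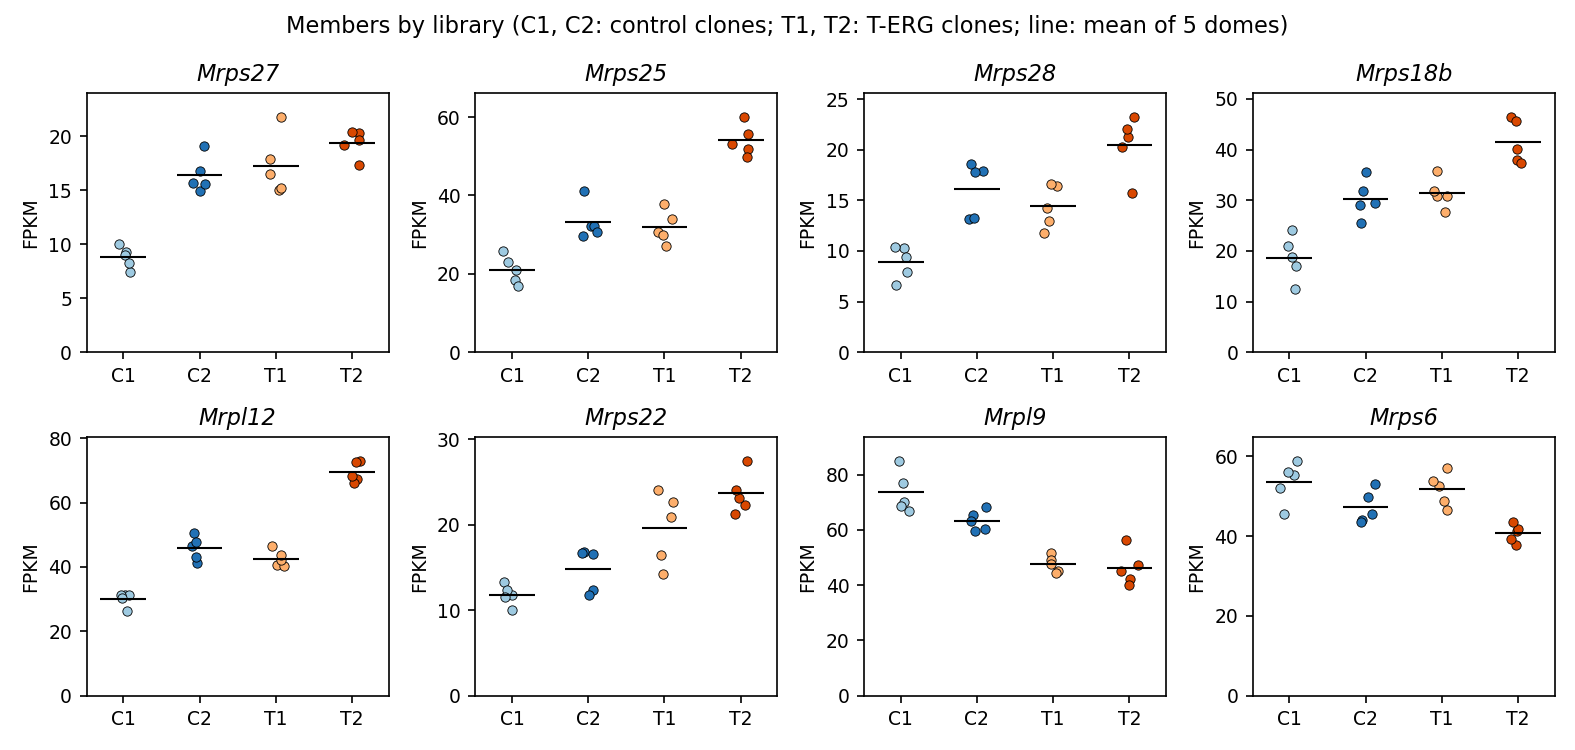
FPKM of 8 members in each library, by clone, with a line at the mean of 5 domes. Mrpl9 lies lower in both T-ERG clones (40.1 to 56.3 FPKM) than in both control clones (59.6 to 85.2 FPKM), while Mrps25 and Mrpl12 are highest in T-ERG clone 2, at 49.9 to 60.0 FPKM and 66.0 to 73.0 FPKM.

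The rise was called within both genotypes in 9 members, against 8.61% of tested genes. These were Mrpl12, Mrpl20, Mrpl37, Mrpl42, Mrps11, Mrps18b, Mrps2, Mrps25 and Mrps28. A further 21 members passed between the control clones and not between the T-ERG clones, in either direction, against 20.5% of tested genes. Another 11 passed only between the T-ERG clones, against 12.7% of tested genes. Whether the difference of a member departs between the genotypes was not tested. Mrps27 differed by 0.83 between the control clones and by 0.17 ± 0.10 between the T-ERG clones (limma adjusted p = 0.237). Mrps36 differed by 0.65 and 0.17, Mrpl45 by 0.52 and 0.10, and Mrpl16 by 0.10 and 0.56 in the same order.

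**Figure D4:**
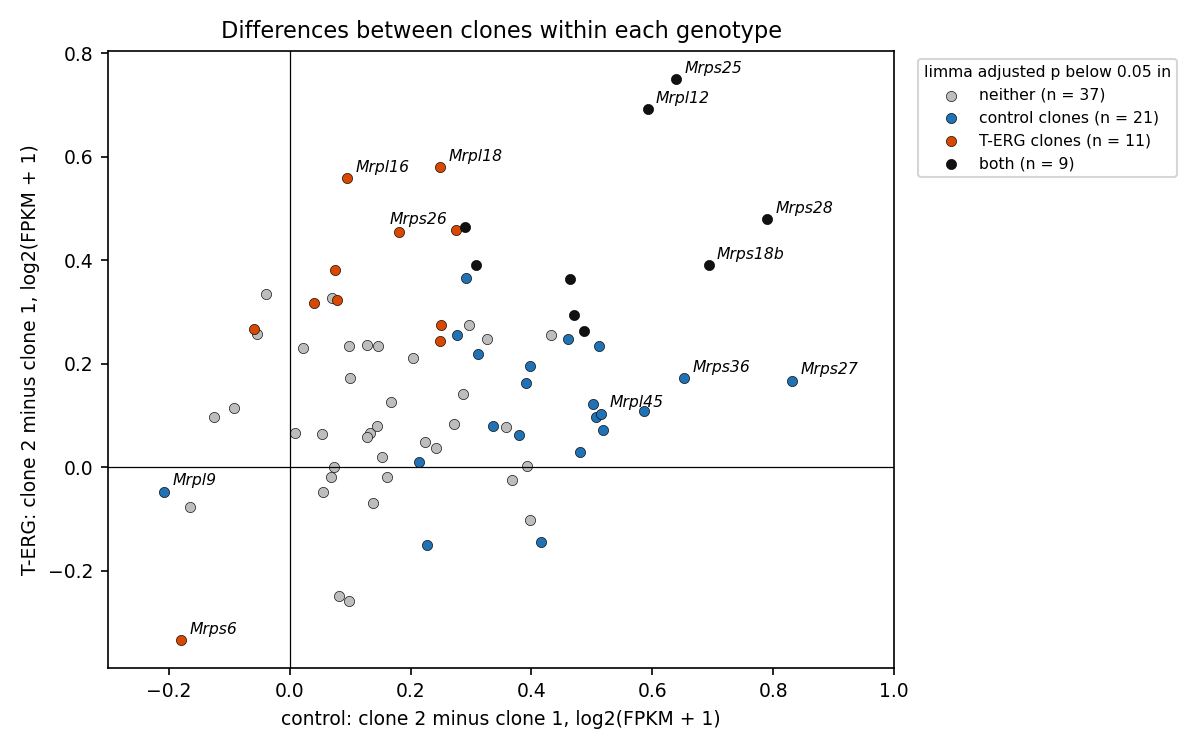
Clone 2 minus clone 1 on the log2(FPKM + 1) scale in control (horizontal) and in T-ERG (vertical) for the 78 members, coloured by the comparison in which limma gave an adjusted p below 0.05. Mrps25 and Mrpl12 lie far from 0 on both axes, Mrps27 and Mrps36 mainly on the control axis, and Mrpl18 and Mrpl16 mainly on the T-ERG axis.

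Genes of cell division were lowest in control clone 1 and highest in T-ERG clone 2, as the members' sums were. The 10 proliferation genes summed to 125.1 to 154.1 FPKM in control clone 1, 307.5 to 317.7 FPKM in control clone 2, 274.7 to 292.3 FPKM in T-ERG clone 1 and 531.0 to 558.2 FPKM in T-ERG clone 2. Control clone 2 lay above T-ERG clone 1 here with no overlap, whereas in the members' sums T-ERG clone 1 had the higher mean and the ranges overlapped. All 10 were called higher in clone 2 within both genotypes, and their part in the members' differences was not tested. Between the genotypes the 10 had a median of 0.96 log2 units, with 1.50 ± 0.61 for the replication helicase gene Mcm5 and 1.06 ± 0.65 for the mitotic kinase gene Plk1, and 0 of them passed. The summed basal markers (Krt5, Krt14 and Trp63) ran from 7970 to 9031, 10970 to 11230, 16020 to 16680 and 20820 to 21200 FPKM over the clones in the same order, and their part was not tested either. The keratins make up nearly all of this sum, and Trp63 alone fell by 0.18 on the log2 scale between the control clones, from 71.0 to 62.6 FPKM (limma adjusted p = 0.0171). Between the T-ERG clones Trp63 rose from 72.4 to 85.3 FPKM (limma adjusted p = 0.00159). The 5 luminal markers summed to 301.2 to 317.7, 705.9 to 734.7, 312.3 to 354.9 and 268.2 to 293.8 FPKM, highest in control clone 2 and lowest in T-ERG clone 2.

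Other genes of mitochondrial translation were compared on the same fits, and none passed between the genotypes. The 5 mitochondrial ribosomal protein genes without an Mrp symbol had a median genotype difference of 0.24 log2 units, with Ptcd3 of the small subunit at 0.61 ± 0.21 and Gadd45gip1 of the large subunit at 0.26 ± 0.22. The 14 translation factor genes had a median of 0.21, with 0.54 ± 0.23 for the elongation factor gene Gfm1 and 0.53 ± 0.27 for Lrpprc, which stabilizes mitochondrial messenger RNA. The 17 synthetase genes had a median of 0.14, with 0.55 ± 0.23 for Yars2 and 0.48 ± 0.24 for Ears2. The 27 genes of ribosome assembly and ribosomal RNA modification had a median of 0.08, below that of the members. Of these, C1qbp, a matrix protein needed for mitochondrial translation, averaged 47.2, 71.5, 78.7 and 124.7 FPKM in control clones 1 and 2 and T-ERG clones 1 and 2. Its genotype difference was 0.76 ± 0.32, and it rose within both genotypes (limma adjusted p = 2.4e-05 and 7.4e-06). Rcc1l, a guanine nucleotide exchange factor of ribosome assembly, had a genotype difference of 0.66 ± 0.28.

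The 13 mitochondrially encoded messenger RNAs, whose translation is the work of these ribosomes, did not share the members' direction. Their median genotype difference was -0.26 log2 units. Both T-ERG clone means lay below both control means in 7 of the 13, against 23.2% of tested genes. mt-Co1 averaged 4249, 3695, 3008 and 2843 FPKM over the clones in the order above, a difference of -0.44 ± 0.13, and mt-Co2 differed by -0.48 ± 0.21. mt-Nd1 differed by 0.08 ± 0.13, and mt-Co3 by -2.37 ± 1.16 with single libraries between 0.05 and 624.6 FPKM. From clone 1 to clone 2 within control, 5 of the 13 were called lower, against 13.2% of tested genes, and 1 higher, against 25.1%. Within T-ERG, 1 was called lower, against 13.5% of tested genes, and 2 higher, against 17.0%.

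Genes of mitochondrial DNA upkeep, nuclear regulators and cytosolic ribosomal genes were set beside the members, with no test between the lists. The 14 genes of mitochondrial DNA replication, transcription and RNA processing had a median genotype difference of 0.37 log2 units, with 0.56 ± 0.22 for Twnk. In the same list the RNA helicase gene Supv3l1 differed by 1.19 ± 0.22, and 2 T-ERG libraries stood apart at 164.7 and 176.0 FPKM while the other 18 lay at 4.59 to 14.7 FPKM. The 8 regulators had a median of 0.25, close to the 0.28 of the members, and all 8 lay above 0, with 0.79 ± 0.24 for the coactivator gene Pprc1 and 0.63 ± 0.24 for Myc. Myc averaged 36.4, 55.6, 67.4 and 73.5 FPKM over the clones, and it rose between the control clones (limma adjusted p = 0.000106) but was not called between the T-ERG clones (limma adjusted p = 0.315). The median clone difference of the regulators was 0.02 within control and 0.17 within T-ERG, and 1 regulator was called higher within each genotype, Myc and Pprc1 respectively. The 80 tested cytosolic ribosomal protein genes had a median genotype difference of 0.17. In 69 of them (86.25%) both means of T-ERG clones exceeded both control means, against 57.7% of members and 21.7% of tested genes. Between clones their medians were 0.01 in control and 0.00 in T-ERG, beside 0.25 and 0.16 for the mitochondrial members.

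**Figure D5:**
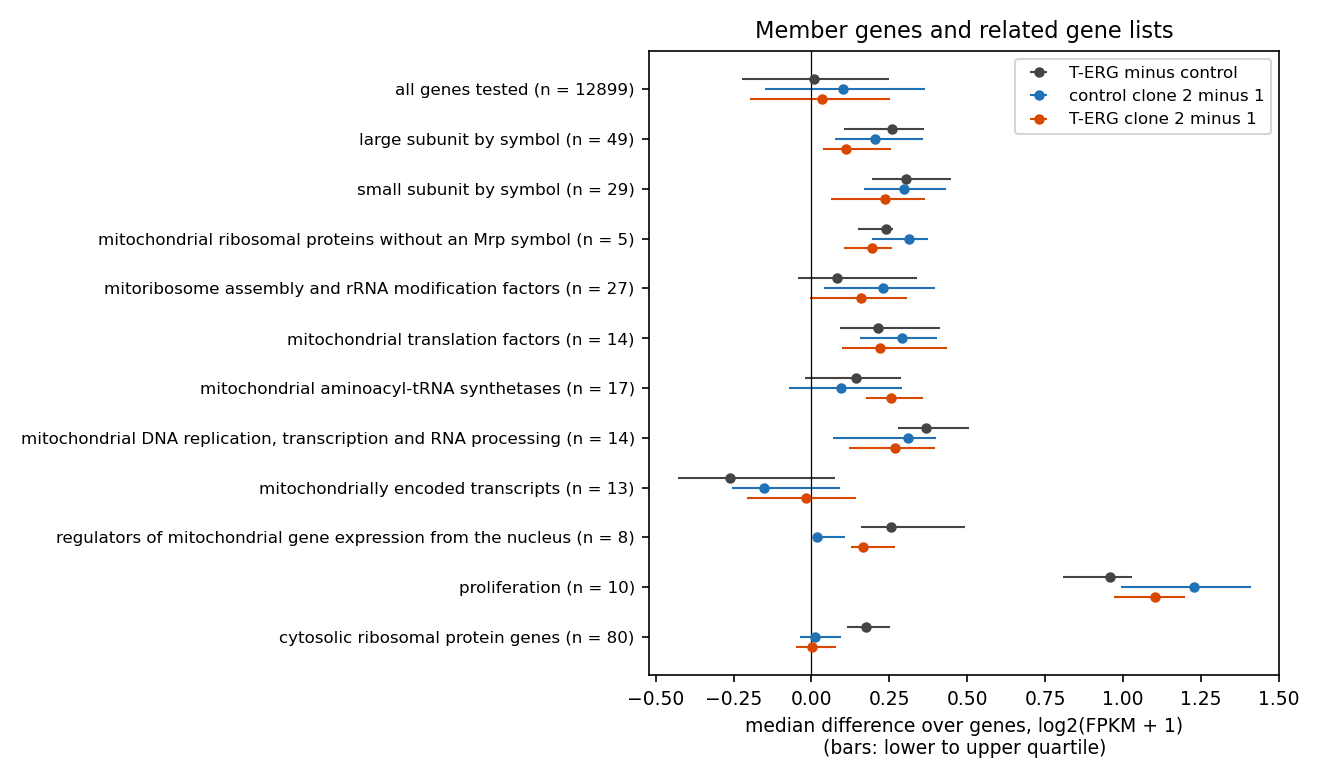
Median difference over the genes of each list on the log2(FPKM + 1) scale for the 3 comparisons, with bars from the lower to the upper quartile of genes. The mitochondrial ribosomal genes lie above 0 in all 3 comparisons, the cytosolic ribosomal genes mainly in T-ERG minus control (0.17), and the mitochondrially encoded transcripts lie below 0 (-0.26, -0.15 and -0.02).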

How the data were processed

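The authors deposited 1 table of log2 values for the RNA libraries, with 54838 genes and a column per library. The deposited unit is log2(FPKM + 1): undoing it gave a value of 2 decimals in 100% of cells, within 0.001 hundredths. The tools named in the submitters' processing notes are RSEM 1.3.0 and DESeq2, with build mm10, while aligner and annotation are not named in these notes. FPKM as deposited by the authors carries no read counts, so depth is unknown and no count test was run. Per library the FPKM summed to between 728255 and 794589, with 14621 to 15457 genes above 0. The header of 2 T-ERG columns carries the same number. Both were taken as clone 2, since only samples of that clone were left without a column. The 4 whole-genome samples were not used here.

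Tested were genes that reached 1 FPKM in 5 or more libraries, with limma 3.58.1 in R 4.3.3 (empirical Bayes with an intensity trend, two-sided, Benjamini-Hochberg over 12899 genes, threshold 0.05), tried on simulated data first. The genotype test used 4 clone means. The 2 clones of a genotype were compared on 5 against 5 domes. Adding 1 before the logarithm makes differences of low genes smaller than they are. Members, lists and tests were chosen with earlier results of these data known. Named were members with a textbook role, the highest and lowest of each subunit by level, the largest differences of each comparison and up to 12 called members, and of each list the 2 genes with the largest genotype difference with Myc, mt-Co1 and mt-Nd1. Some names beyond this rule (such as Mrpl37, Mrpl42 and Mrps35, and the neighbours of members) were added after values were seen. Sequences and positions are from RefSeq on GRCm38.p6, the assembly of mm10. Alternatives were another pseudocount (0.1), other low-value filters, no trend, median centring, quantile normalization, replicate blocks, the clone as a random block and leaving out each clone or library.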

Additional observations from a re-analysis of the deposited data

Results flagged for a closer look

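In 212 groups of 5 domes, each a level of a named member or a summed measure within 1 clone, a library lay far from the other 4 in 14 cases. The rule (a gap to the nearest library that takes up most of the range, Dixon's 95% limit) flags about 1 in 20 groups by chance.

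In control clone 1, Mrpl12 was at 26.4 FPKM in dome 3 against a clone median of 31.1, Mrpl49 at 16.4 FPKM in dome 2 against 12.8, and Mrps7 at 34.2 FPKM in dome 4 against 22.0. In control clone 2, Mrps25 was at 41.1 FPKM in dome 1 against 32.2, and the sum over members was 3666 FPKM in dome 3 against 3486.

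In T-ERG clone 1, Mrps18c was at 69.8 FPKM in dome 1 against a clone median of 101.3 and Mrps33 at 99.98 FPKM in dome 5 against 75.4. The median log2 level of the large-subunit genes was 5.22 in dome 3 of this clone, against 5.38. In T-ERG clone 2, Mrpl10 was at 34.9 FPKM in an unnumbered library against 32.1. Dome 4 held 2 cases, Mrps10 at 52.9 FPKM against 43.0 and Mrps16 at 17.4 FPKM against 25.8. Mrps18c was at 97.3 FPKM in dome 3 against 94.7. Dome 5 had Mrpl20 at 139.3 FPKM against 114.2 and the highest sum over members, 4243 FPKM against 3973.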

How the results depend on the processing

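Between the genotypes, no alternative on 4 clone means called a member, and the clone number as a replicate block called 0 as well. The 20 libraries with the clone as a random block called 2 higher and 1 lower, against 5.23% and 5.61% of tested genes. The median member difference ranged from 0.13 (without control clone 1) to 0.37 when a clone was left out, and members above 0 from 62 to 72. Without control clone 1, members above 0 went from 71 to 62. Mrpl45, Mrps23 and Mrps36 were among those that changed sign (ranges over left-out clones -0.15 to 0.36, -0.0029 to 0.39 and -0.26 to 0.39). The lone control clone is then assumed to vary like the T-ERG clones.

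Between the control clones, the 29 higher and 1 lower became 19 and 2 with a median difference of 0.16 after median centring. Mrpl9, the 1 lower, was called in 0 fits with no low-value filter, no trend or dome number as a replicate block (28 higher, against 22.7% of tested genes). Leaving out a library gave 25 to 31 higher, 0 to 1 lower and medians of 0.21 to 0.27, and 22 of the 30 were called each time.

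Between the T-ERG clones, median centring gave 2 lower (Mrps6 and Mrpl14), against 15.7% of tested genes. Dome number as a replicate block, possible for numbered libraries only, gave 5 higher and 0 lower, against 5.54% and 5.08% of tested genes. With this block, members above 0 went from 64 to 59. Mrpl1 (-0.042), Mrpl10 (-0.00073) and Mrpl3 (-0.062) were among those that turned below 0. Leaving out a library gave 18 to 23 higher, 1 to 2 lower and medians of 0.13 to 0.18, and 18 of the 20 were called each time. The causes were not tested. No label ties samples of equal number. Same-numbered domes correlated by -0.01 to 0.06 in their differences from clone means over genes, and clone 2 minus clone 1 correlated by 0.17 over genes between the genotypes. The genotype test rests on 2 clones per genotype, and FPKM values show no depth.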
